A study of Homo sapiens with 15 samples.

Results

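The 8 genes INSIG1, UBL4A, PPP1R26, B4GAT1, BEX1, GPX1, ALDH1B1 and ZCCHC12 had ample nuclear RNA in a human kidney cell line and almost no coverage in PAR-CLIP of the Polycomb protein PHC1. They are a named list of 8 among the 14432 genes of the deposited gene tables, taken by their Entrez numbers and by the gene regions of the ChIP table, and they were selected on PHC1 PAR-CLIP coverage near 0 beside nuclear RNA above 20 CPM (counts scaled to a library total of 1M). Their PHC1 and nuclear RNA levels, and any value that uses those libraries, are therefore given as a description, with no test. What was low was coverage by called PAR-CLIP clusters. Coverage in 4SU PAR-CLIP of RNA polymerase II (RNAPII) was also low beside their nuclear RNA, although at INSIG1 and PPP1R26 it was above the median of all genes. They are referred to below as the 8 genes with low PHC1 coverage.

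PHC1 is a subunit of Polycomb repressive complex 1 (PRC1), which compacts chromatin and modifies histone H2A at repressed genes, often beside the H3K27me3 mark that EZH2 places as part of PRC2. Its FCS zinc finger is known to bind RNA. PAR-CLIP crosslinks RNA that carries a photoreactive nucleoside to the protein that touches it, and the bound fragments pile up as clusters on the genome. In general, crosslinks to such a protein can fall on introns, which make up most of a long nuclear transcript, as well as on exons.

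All samples were HEK293T T-REx cells, a human embryonic kidney line built for inducible transgenes. PHC1 PAR-CLIP (2 libraries) came from cells with a PHC1 transgene fed 4-thiouridine (4SU), recovered on streptavidin beads. RNAPII PAR-CLIP had 1 library from cells fed 4SU and 1 from cells fed 6-thioguanosine (6SG), and total nuclear RNA-seq with ribosomal RNA removed had 2 libraries, all from cells with no transgene. PAR-CLIP cells received 100 uM nucleoside and 0.15 J/cm2 of 365 nm light. The RNA bound to PHC1 and the RNA it is set against thus came from cells of different transgene status. ChIP-seq, on cells fixed with 1% formaldehyde for 6 minutes, had 2 libraries of PHC1 dFCS and 2 of PHC1, which the deposited table joins into 1 column each, and 1 library each for RNAPII, the marks H3K4me3 and H3K27me3, EZH2 and the input. The levels of the gene PHC1 itself, and so of the transgene, were not analysed here. Of 8 listed genes of this line in the tables, 5 had 20 CPM or more and the highest 908 CPM, while hepatocyte and blood markers stayed at or under 0.329 CPM, keratinocyte markers at or under 0.0207 CPM and fibroblast markers at or under 1.54 CPM. PHC1 PAR-CLIP gave 696186 and 698056 clusters, RNAPII 667937 with 4SU and 45259 with 6SG, and RNA-seq 47187882 and 49626658 counts. The labels do not say that replicates came from separate cultures, so their spread may be technical.

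Promoters are shown for 4 of the genes because their ChIP values differed most. INSIG1 had the highest RNAPII score of the 8, ZCCHC12 the lowest, GPX1 the highest H3K4me3 score and BEX1 the lowest. Each line holds the 250 bases before the RefSeq start of the gene, on GRCh38.p14, at chr7:155297628-155297877 (plus strand), chrX:118823574-118823823 (plus strand), chr3:49358354-49358603 (minus strand) and chrX:103064172-103064421 (minus strand). Capitals mark the TATA box (TATAAA), the CCAAT box and the GC box (GGGCGG) on either strand, so that a CCAAT box on the reverse strand shows as ATTGG and a GC box there shows as CCGCCC. Adjoining GC boxes can overlap in 1 run of capitals.
INSIG1: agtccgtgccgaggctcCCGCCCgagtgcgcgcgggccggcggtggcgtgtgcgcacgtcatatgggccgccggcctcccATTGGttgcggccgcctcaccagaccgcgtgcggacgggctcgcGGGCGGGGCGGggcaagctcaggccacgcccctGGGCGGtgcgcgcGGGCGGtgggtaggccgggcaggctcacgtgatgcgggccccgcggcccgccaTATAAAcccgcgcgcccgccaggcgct
ZCCHC12: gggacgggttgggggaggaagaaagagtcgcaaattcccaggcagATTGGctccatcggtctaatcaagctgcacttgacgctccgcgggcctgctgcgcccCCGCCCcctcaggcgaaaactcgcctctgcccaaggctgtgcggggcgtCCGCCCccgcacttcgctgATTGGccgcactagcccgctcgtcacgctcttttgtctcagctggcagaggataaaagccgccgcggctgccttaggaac
GPX1: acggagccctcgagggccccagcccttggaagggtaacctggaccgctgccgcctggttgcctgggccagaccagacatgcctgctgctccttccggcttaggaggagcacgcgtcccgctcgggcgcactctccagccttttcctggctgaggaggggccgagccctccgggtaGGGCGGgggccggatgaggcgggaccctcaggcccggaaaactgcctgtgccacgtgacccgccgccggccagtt
BEX1: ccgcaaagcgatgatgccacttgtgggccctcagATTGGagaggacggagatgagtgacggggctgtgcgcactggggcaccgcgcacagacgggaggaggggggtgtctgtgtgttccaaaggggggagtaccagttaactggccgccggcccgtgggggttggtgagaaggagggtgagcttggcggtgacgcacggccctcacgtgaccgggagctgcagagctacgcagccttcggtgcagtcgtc
RefSeq promoters were matched for 7 of the 8 genes, all except B4GAT1. TATAAA was found only at INSIG1 among these 7, 27 bases before the start, and in 10.7% of the 35116 RefSeq promoters of the same length. CCAAT lay in 5 of the 7 promoters (32.0% of all) and GGGCGG in 6 of the 7, all but BEX1 (42.6% of all). CpG pairs numbered 41 at INSIG1, 44 at UBL4A and 43 at PPP1R26, against 19 to 23 at the other 4 and a median of 11 over all promoters. The 7 promoters thus had no shared motif among those searched, and all had more CpG pairs than the median promoter.

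The PAR-CLIP values that follow are the summed coverage of the clusters in a gene's region, scaled to a total of 1M over all genes of the library (covPM), and RNA values are CPM. A PAR-CLIP value of 0 means that no cluster was called in the region, not that no read fell there. Fold changes are log2 of the value plus 1 after TMM scaling, given as PAR-CLIP over nuclear RNA with the standard error (SE) of the limma fit, and they understate a change in low genes.

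INSIG1 encodes a membrane protein of the endoplasmic reticulum that holds SCAP and the SREBP transcription factors there when sterols are plentiful. INSIG1 (Entrez 3638, hg19 chr7:155089486-155101945, 12.46 kb) had PHC1 coverage of 0 and 1.73 covPM in replicates 1 and 2, against nuclear RNA of 256 and 234 CPM. Its nuclear RNA was the highest of the 8, at the 93.5th percentile of all genes, and its log2 fold of PHC1 over RNA, -7.00 ± 0.56 (SE), was the lowest of the 9362 genes fitted. RNAPII coverage was 14.1 covPM with 4SU and 0 with 6SG. The PHC1 signal of INSIG1 thus rested on replicate 2 alone and was far below both RNA values.

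UBL4A encodes a subunit of the BAG6 complex, which hands tail-anchored proteins on for insertion into membranes. UBL4A (Entrez 8266, hg19 chrX:153712056-153714932, 2.877 kb) had PHC1 coverage of 0.810 and 0.643 covPM, against nuclear RNA of 143 and 127 CPM. It was the only one of the 8 with a PHC1 cluster in both replicates. Its fold was -6.04 ± 0.17 (SE). RNAPII coverage was 3.51 covPM with 4SU and 0 with 6SG.

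B4GAT1 encodes a Golgi glucuronyltransferase that primes the laminin-binding sugar chain of dystroglycan. B4GAT1 (Entrez 11041, hg19 chr11:66112843-66115161, 2.319 kb) had PHC1 coverage of 1.23 and 0 covPM, against nuclear RNA of 104 and 96.1 CPM. Its fold was -5.83 ± 0.49 (SE). The RNAPII library made with 4SU had 0.864 covPM, which lay between the PHC1 replicates, and the one made with 6SG had 0.

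GPX1 encodes the selenium-containing glutathione peroxidase that clears hydrogen peroxide from the cytosol. GPX1 (Entrez 2876, hg19 chr3:49394609-49395791, 1.183 kb, the shortest of the 8) had PHC1 coverage of 1.45 and 0 covPM, against nuclear RNA of 100 and 98.4 CPM. Its fold was -5.74 ± 0.54 (SE), the least negative of the 6 genes that had any PHC1 cluster. RNAPII coverage was 3.87 covPM with 4SU and 0 with 6SG. GPX1 is known to have processed pseudogenes, and how the authors treated reads that match several places is not given in the sources used here, so its levels are uncertain in that respect.

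ALDH1B1 encodes a mitochondrial aldehyde dehydrogenase. ALDH1B1 (Entrez 219, hg19 chr9:38392661-38398662, 6.002 kb) was listed at 0 in both PHC1 libraries, against nuclear RNA of 80.8 and 86.3 CPM. No fold is given against a group listed at 0. RNAPII coverage was 6.19 covPM with 4SU and 0 with 6SG, so clusters were called on ALDH1B1 in 1 RNAPII library and in neither PHC1 library.

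PPP1R26 encodes a regulatory subunit of protein phosphatase 1. PPP1R26 (Entrez 9858, hg19 chr9:138371648-138380739, 9.092 kb) had PHC1 coverage of 0.361 and 0 covPM, against nuclear RNA of 84.8 ± 3.12 CPM (SD, n = 2; 87.0 and 82.6). Its fold was -5.99 ± 0.24 (SE). RNAPII coverage reached 13.4 covPM with 4SU, close to that of INSIG1, and was 0 with 6SG. The 4SU value counts 12 sense and 2 antisense clusters together.

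BEX1 encodes a small adaptor protein of the brain-expressed X-linked family, linked to neurotrophin signalling. BEX1 (Entrez 55859, hg19 chrX:102317581-102319168, 1.588 kb) had PHC1 coverage of 0.327 and 0 covPM, against nuclear RNA of 73.6 and 71.5 CPM. Its fold was -5.78 ± 0.23 (SE). RNAPII coverage was 6.29 covPM with 4SU and 0 with 6SG. BEX2 is a close copy of BEX1, and how reads shared by the copies were counted is not given in the sources used here.

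ZCCHC12 encodes a CCHC zinc-finger protein related to the PNMA family and described as a coactivator in BMP signalling. ZCCHC12 (Entrez 170261, hg19 chrX:117957787-117960931, 3.145 kb) was listed at 0 in both PHC1 libraries and in both RNAPII libraries, against nuclear RNA of 74.7 and 72.8 CPM. It was the only one of the 8 with no cluster in any of the 4 PAR-CLIP libraries. Its RNA replicates lay close together, at 73.8 ± 1.30 CPM (SD, n = 2).

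**Figure D1:**
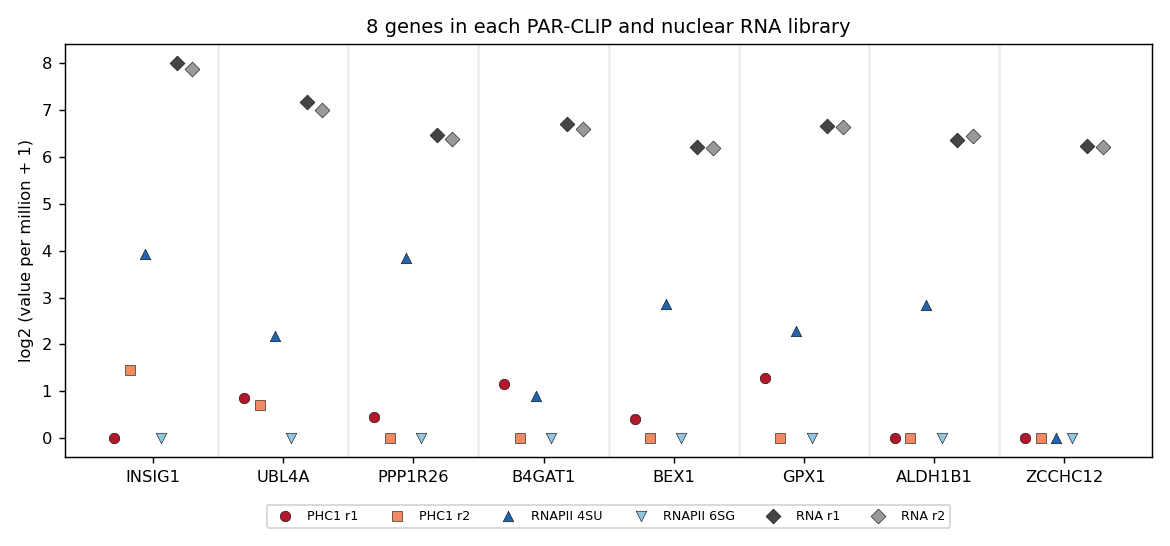
Each point is 1 library, on the vertical axis as log2 of the value (covPM or CPM) plus 1, for the 8 genes along the horizontal axis. In each gene both RNA points lie above all 4 PAR-CLIP points, the 6SG points lie at 0, and ZCCHC12 has all 4 PAR-CLIP points at 0.

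In order of nuclear RNA the 8 genes ran INSIG1, UBL4A, B4GAT1, GPX1, PPP1R26, ALDH1B1, ZCCHC12 and BEX1. INSIG1 and UBL4A stood clear of each other and of the rest in both replicates, whereas B4GAT1 and GPX1, PPP1R26 and ALDH1B1, and ZCCHC12 and BEX1 each had overlapping replicate values. By nuclear RNA per kb of region the order changed: GPX1 led with 83.9 CPM per kb, and PPP1R26 was last with 9.33 CPM per kb. Per kb all 8 were at or above the 92.9th percentile of the 14432 genes, against the 71.9th to 93.5th percentile by CPM alone. PHC1 coverage gave no clear order, since in 5 of the 6 genes with any cluster 1 of the 2 replicates was at 0.

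Across all genes, PHC1 coverage was lower than nuclear RNA in 4408 of 9362 fitted genes (47.1%) and higher in 3319 (35.5%) by limma with Benjamini-Hochberg adjustment. The 8 genes were all among the lower ones, which their selection fixed, and each passed the filter on low values through its RNA libraries alone. Their folds ranked 1 and 3 to 9 from the lowest, which restates how they were chosen. Ranks 3 and 4 were ALDH1B1 and ZCCHC12, listed at 0, whose folds are set by their RNA and the value of 1 added. COL2A1, a cartilage collagen gene outside the list, ranked 2 with -6.24 ± 0.36 (SE), from PHC1 coverage of 0.752 and 0 covPM against RNA of 122 and 113 CPM. Next after the 8 came COL6A1 at -5.69, GLUD2 at -5.69 and GGH at -5.62, so no gap in the ranking set the 8 genes apart from the genes just outside.

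**Figure D2:**
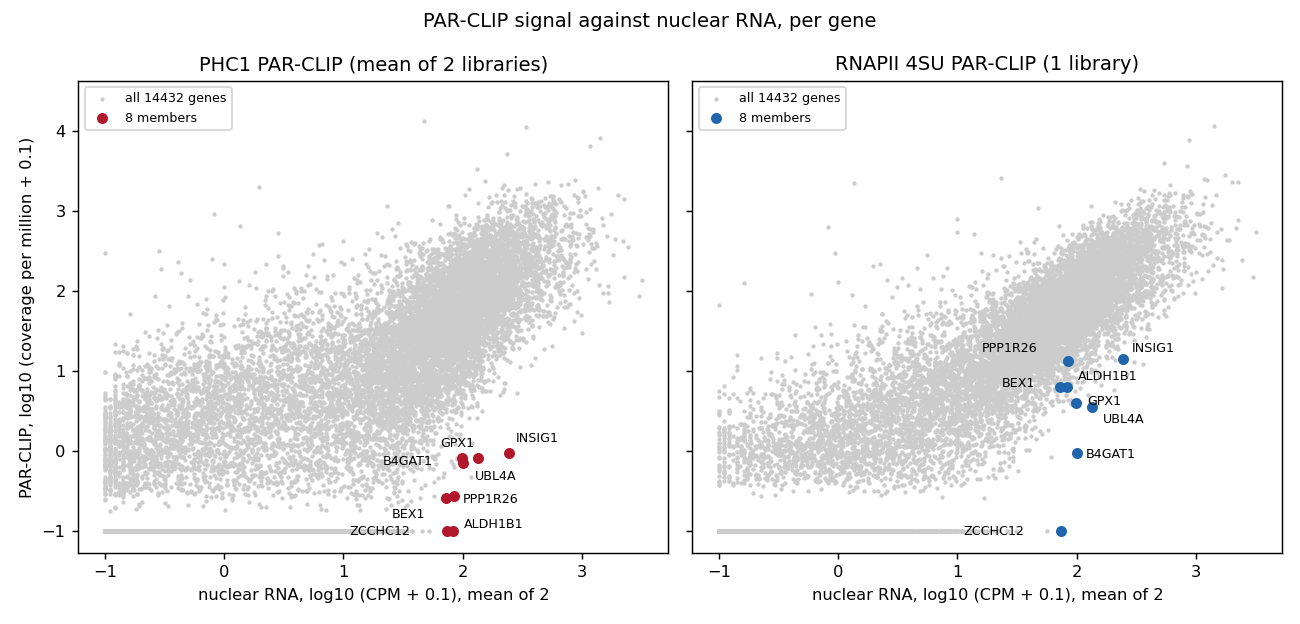
Each grey point is 1 gene, with nuclear RNA as log10 of CPM plus 0.1 on the horizontal axis and PHC1 (left) or RNAPII 4SU (right) PAR-CLIP coverage as log10 of covPM plus 0.1 on the vertical axis. The 8 coloured genes lie under the main cloud on the left, and on the right they lie low in the cloud or under it.

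The RNAPII libraries took no part in choosing the genes, although the nuclear RNA they are set against did. With both RNAPII libraries as 1 group, limma called no gene of 8744 (0%, and 2080 at an unadjusted p under 0.05), so no member was called either. With the 4SU library alone, which was assumed to vary like the replicated RNA group, 51% of 8538 genes were called lower and 40.5% higher. The 8 genes were among the lower ones, but nothing is read from that, since high nuclear RNA helped to choose them and their RNA libraries alone carried them past the filter. Their folds of RNAPII 4SU over RNA ran from -2.28 ± 0.07 in PPP1R26 to -5.56 ± 0.08 (SE) in B4GAT1, with ZCCHC12 listed at 0, beside a median of -0.18 over all genes. B4GAT1 was the 3rd lowest and UBL4A the 9th lowest of all genes in that comparison, INSIG1 the 58th and PPP1R26 the 640th. As a level, RNAPII 4SU coverage of 14.1 covPM at INSIG1 and 13.4 covPM at PPP1R26 lay above the median of 9.51 covPM over all 14432 genes, and the other 6 lay below it. In 6 of the 8 genes 4SU coverage was above both PHC1 values, the exceptions being B4GAT1 and ZCCHC12. No member passed the filter on low values in PHC1 against RNAPII, with or without the 6SG library, so that difference could not be fitted for any of them.

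At least the nuclear RNA of BEX1, the lowest of the 8, was found in 4060 genes. Of these, 15 had a mean PHC1 coverage at or under that of INSIG1 (0.863 covPM), the highest of the 8. No PHC1 cluster was called in 2 of the 4060, ALDH1B1 and ZCCHC12. These limits were the extremes of the 8 genes, so all 8 are among the 15 by construction. The median PHC1 coverage of the 4060 genes was 103 covPM and their median RNAPII 4SU coverage 124 covPM. In the 554 of them that were no longer than INSIG1, these medians were lower, at 36.4 and 54.3 covPM. Absence of RNAPII 4SU clusters was found among the 4060 in ZCCHC12 alone. Absence of 6SG clusters was found in all 8 genes, in 485 of the 4060 (11.9%), and in 130 (23.5%) of the 554 that were no longer than INSIG1. It was also found in 43 (91.5%) of the 47 genes with 20 CPM or more and no PHC1 cluster. The 6SG library was shallow, and what its zeros at the 8 genes mean was not tested. Of those 554 shorter genes 11 had PHC1 coverage as low, the 8 themselves, GLUD2, and CST3 and CFL2, of which the last pair are named after their values were seen.

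The 8 genes were short. Their regions spanned 1.183 to 12.46 kb, against a median of 48.7 kb over the 4060 genes with as much RNA, and 7 of the 8 fell in the shortest decile of those genes by length. INSIG1 fell in the next decile. Across these genes the fold of PHC1 over RNA went with length, with a median of -2.17 in the shortest decile and 0.17 in decile 9, but it was -0.25 in the longest. The fold of RNAPII 4SU over RNA went with length in the same direction, with medians of -1.31 and 0.51 in the same deciles and 0.12 in the longest. Folds of the 6 genes with any PHC1 cluster lay between -7.00 and -5.74, below the median of the shortest decile. That decile had a median length of 5.74 kb, and of these 6 genes GPX1, BEX1, B4GAT1 and UBL4A were shorter than that. Coverage per gene sums clusters over the whole region, and the part of length in the low coverage of the 8 genes was not tested.

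**Figure D3:**
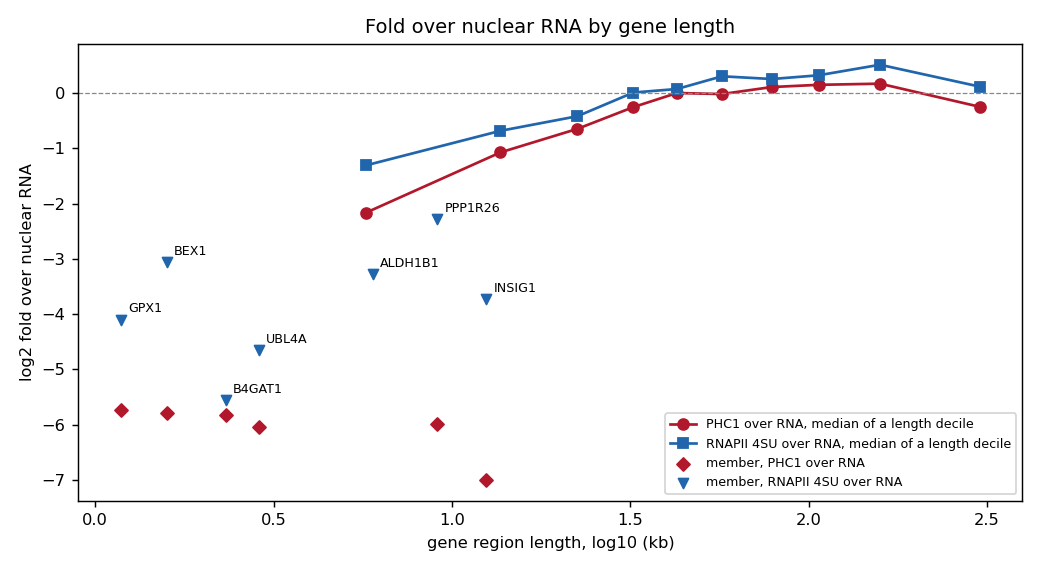
Lines join the median log2 fold over nuclear RNA in deciles of the 4060 genes by length, placed at the median length (log10 of kb), for PHC1 and RNAPII 4SU. Single points are members with any cluster. Their PHC1 points lie from -7.00 to -5.74 and their RNAPII points from -5.56 to -2.28, all below the shortest-decile median of the same protein. Members shorter than that decile's median length of 5.74 kb lie left of where the lines begin.

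No region of the 8 genes overlapped another gene region of the table. Counting a cluster for every region that holds its midpoint left all 8 unchanged, and counting it for every region that shares a base changed UBL4A alone, through 1 RNAPII 4SU cluster at its edge. Gaps to the nearest region were 260 bases at B4GAT1 (to BRMS1), 717 bases at UBL4A (to SLC10A3) and 787 bases at GPX1 (to RHOA), and 6.29 kb or more at the other 5. Clusters of these 8 genes were therefore not lost to an overlapping neighbour.

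Neighbouring genes differed widely in PHC1 coverage. RHOA, which encodes a small GTPase of the cytoskeleton, had 96 and 104 PHC1 clusters and 305 and 388 covPM, beside nuclear RNA of 328 and 328 CPM, and GPX1 next to it on the same strand had 2 and 0 clusters. BRMS1 had 5.44 and 4.87 covPM with RNA of 62.5 and 57.3 CPM, a fold of -2.98 ± 0.16 (SE). LAGE3 and SLC10A3, on either side of UBL4A, had folds of -5.08 ± 0.31 and -3.83 ± 0.30 (SE). Low PHC1 coverage beside nuclear RNA was thus shared by both neighbours of UBL4A and was not seen at RHOA. The other 9 adjoining genes that could be fitted had folds from -3.10 at PAXIP1-DT to 2.19 at USP4. Within 5 kb outside the 8 regions lay 37 and 32 PHC1 clusters, against 9 and 3 inside them, but these flanks together are longer than the regions. Most of the flank clusters lay around GPX1, and the flanks of INSIG1 and ALDH1B1 held none in either library. Around GPX1 the flank clusters numbered 21 on its own strand and 3 on the other in replicate 1, and 17 and 3 in replicate 2. On 1 side this flank reached into the region of RHOA, 787 bases away on the same strand, and clusters of RHOA were not set apart.

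The few PHC1 clusters inside the regions were shallow and did not recur. Replicate 1 had 9 clusters in 5 genes and replicate 2 had 3 clusters in 2 genes, all on the sense strand, the strand of B4GAT1 being read from its own clusters. Their mean coverage was 9.53 to 21.8 reads per base in replicate 1 and 8.64 to 13.0 in replicate 2, beside library medians of 14.9 and 15.3. None of the 9 met a cluster of replicate 2 and none of the 3 met one of replicate 1, whereas 66.4% and 70.2% of all clusters did, and 57.9% and 48.2% of gene clusters no deeper than the deepest of the members in that library. A cluster of the RNAPII 4SU library was met by 5 of the 9 and 1 of the 3, beside 28.8% and 27.7% of all PHC1 clusters. Since low coverage chose the genes, these shares carry no test.

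By position, 6 of the 9 clusters and 3 of the 3 lay nearer the 3′ end of the region than its 5′ end, against 55.7% and 57.2% of the sense clusters in genes of like RNA and length. In INSIG1 the 2 clusters of replicate 2 lay 11.0 and 12.4 kb from the 5′ end (hg19 chr7:155100425-155100468 and chr7:155101909-155101931). In UBL4A the clusters of replicate 1 lay 0.652, 2.31 and 2.32 kb from the 5′ end and that of replicate 2 lay 2.53 kb from it. The first of these, at 0.652 kb of 2.877 kb, lay nearer the 5′ end. B4GAT1 alone had all its PHC1 clusters nearer the 5′ end, in replicate 1 at 0.086 and 1.04 kb of its 2.319 kb. RNAPII 4SU clusters were more numerous, 47 in 7 genes, of which 45 were sense and 26 of these nearer the 3′ end. The 2 antisense ones lay in PPP1R26, near its 5′ end.

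**Figure D4:**
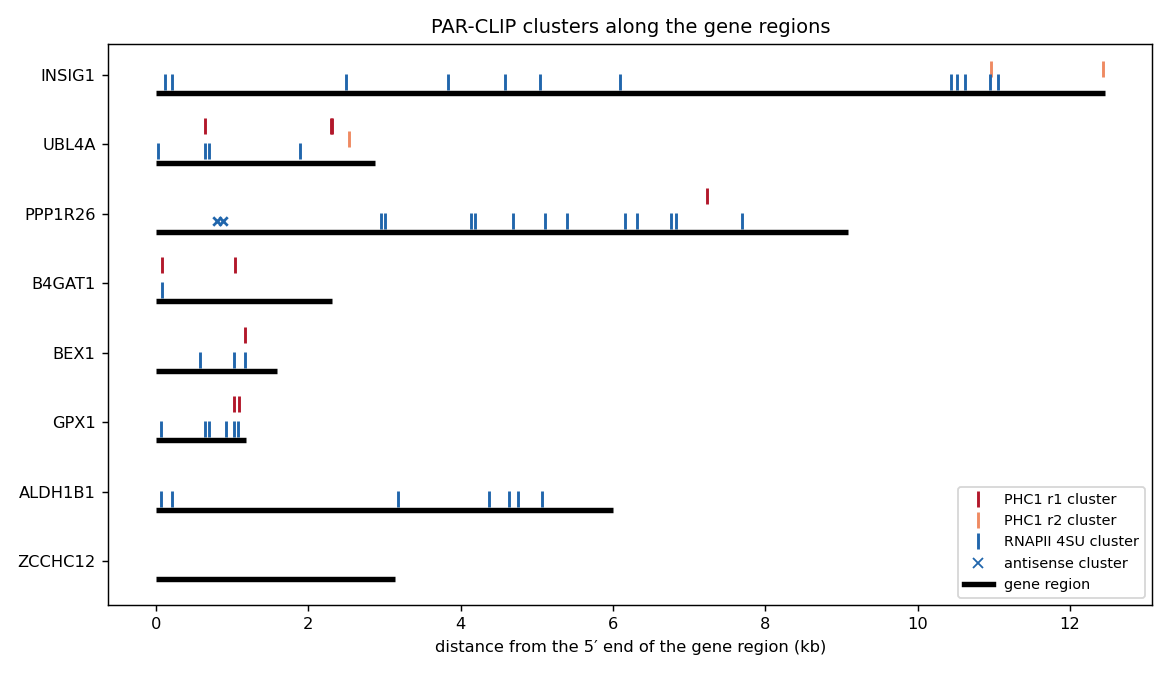
Black bars are the gene regions, drawn to scale from the 5′ end in kb, and each tick is the midpoint of 1 cluster in PHC1 replicate 1, PHC1 replicate 2 or the RNAPII 4SU library, with crosses for antisense clusters. The regions hold 9 and 3 PHC1 clusters and 47 RNAPII 4SU clusters, and ZCCHC12 holds none.

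At the promoters the 8 genes carried the mark of active start sites. ChIP scores are the authors' reads per 10M at the start site (TSS) minus those of the input, and with 1 library per target they have no replicate. H3K4me3, which marks active promoters, scored above 0 at all 8, from 16.9 at BEX1, 18.9 at ZCCHC12 and 19.2 at PPP1R26 to 42.2 at UBL4A, 47.8 at INSIG1, 48.1 at B4GAT1, 50.4 at ALDH1B1 and 52.1 at GPX1. By this score all 8 were below the median of 54.3 for the 4060 genes with as much RNA, where 97.4% scored above 0. As a ratio over input, 2 of the 8, GPX1 and UBL4A, lay above the 9.98-fold median of those genes. H3K4me3 over input ran from 3.11-fold at BEX1 (107 reads against 31) to 11.1-fold at GPX1 (246 against 20), and the exact 95% interval from the read numbers lay above 1 at all 8. These intervals cover counting error only.

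By score, RNAPII at the TSS placed the 8 between the 1.28th and the 80.3rd percentile of the genes with as much RNA. The H3K4me3 score placed them between the 6.75th and the 46.1st. The RNAPII score was 22.1 at INSIG1, 18.2 at GPX1, 14.4 at UBL4A, 8.61 at ALDH1B1, 7.58 at B4GAT1, 4.63 at PPP1R26, 3.37 at BEX1 and -1.08 at ZCCHC12. INSIG1, GPX1 and UBL4A were thus above the median of 14.0 for the genes with as much RNA, and the other 5 below it. RNAPII over input was 0.850-fold at ZCCHC12, with 20 reads against 28 in the input and a 95% interval of 0.454 to 1.56. It was 1.42-fold at BEX1, with an interval of 0.858 to 2.37. At these depths no RNAPII above input was detectable at the ZCCHC12 and BEX1 start sites, and the interval lay above 1 at the other 6.

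Scores of the Polycomb enzyme and its mark lay close to the input. EZH2 scored above 0 at 4 of the 8, with 2.89 at UBL4A the highest, beside 36.7% of the genes with as much RNA, and its interval over input held 1 at all 8. H3K27me3 scored above 0 at ZCCHC12 alone (0.203), beside 8.65% of those genes. Its interval held 1 at 7 of the 8 and lay below 1 at INSIG1, at 0.468-fold (0.220 to 0.950). ZCCHC12 thus had the lowest RNAPII score and the highest H3K27me3 score of the 8, and both intervals over input held 1.

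PHC1 dFCS (named as PHC1 without FCS) and PHC1 itself were set side by side as the authors' pooled values, with no error. At GPX1 the score was 3.87 for PHC1 dFCS and 2.49 for PHC1, and at UBL4A it was 1.99 for PHC1 dFCS and 2.83 for PHC1. At INSIG1 it was 1.16 for PHC1 dFCS and -1.42 for PHC1, and at BEX1 -0.03 for PHC1 dFCS and -2.84 for PHC1. Values were higher for PHC1 dFCS at 6 of the 8, all but UBL4A and ZCCHC12, beside 83.3% of the genes with as much RNA and 79.4% of all genes. The log2 ratio of PHC1 dFCS over PHC1 before input subtraction had a median of 0.38 in the 8 genes, beside 0.27 in the genes with as much RNA. Low PHC1 coverage on RNA was thus found at promoters with PHC1 scores on either side of 0, from 2.83 at UBL4A to -2.84 at BEX1. Part of that range came from the input, with 17 reads at UBL4A and 31 at BEX1. Before input subtraction PHC1 was 7.22 per 10M at UBL4A and 5.16 at both BEX1 and B4GAT1, although B4GAT1 scored -0.77. The pooled values allowed no interval, so the scores are not read as differences in PHC1 occupancy.

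**Figure D5:**
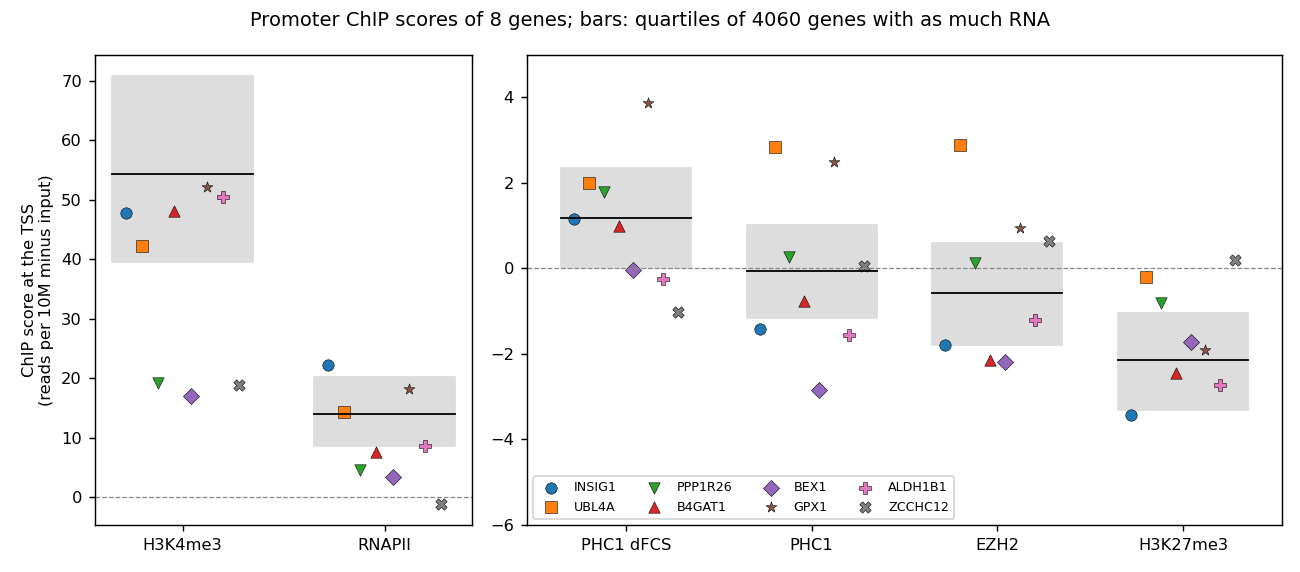
Each point is 1 gene's ChIP score at the TSS, in reads per 10M minus input, for H3K4me3 and RNAPII (left) and for PHC1 dFCS, PHC1, EZH2 and H3K27me3 (right). Grey bars span the quartiles and black lines the medians of the 4060 genes with as much RNA; all 8 H3K4me3 points lie below the line at 54.3, and 7 of the 8 H3K27me3 points lie below 0.

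Relatives and partners of the 8 genes were followed to see whether low PHC1 coverage ran in their families or pathways. These lists were chosen with earlier results known, so they are described by counts beside the 47.1% lower, the 35.5% higher and the median fold of -0.33 over all genes. That background was not matched for gene length, and the part of length in the folds of the lists was not tested. Of the sterol control genes that work with INSIG1, 11 of 13 were lower, 1 was higher, and the median fold was -1.94. SQLE, an oxygenase of cholesterol synthesis, had PHC1 coverage of 4.27 and 6.14 covPM beside RNA of 288 CPM, a fold of -5.23 ± 0.15 (SE). UBE2G2, a ubiquitin-conjugating enzyme of protein quality control at the endoplasmic reticulum, was the 1 higher gene, at 1.25 ± 0.09 (SE).

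In the BEX and TCEAL family, short X-linked genes related to BEX1, 5 of 7 fitted genes were lower and none higher, with a median fold of -3.37. The fitted genes were 1.70 to 2.24 kb long. The shortest decile of genes with at least the RNA of BEX1 had a median fold of -2.17, so low folds were not particular to this family. BEX3 had PHC1 coverage of 1.54 and 1.52 covPM beside RNA of 95.1 CPM, a fold of -4.96 ± 0.14 (SE), and TCEAL8 had a fold of -3.58 ± 0.18 (SE). BEX4 was at -2.17 ± 0.14 (SE), and TCEAL9, at -0.97 ± 0.46 (SE), did not pass the test. Among glutathione peroxidases and selenoprotein genes 7 of 10 were lower and 2 higher (median -2.52), with GPX3, 1 of the 7 and named after its value was seen, listed at 0 in both PHC1 libraries. GPX4, which protects membranes from lipid peroxides, was lower at -2.96 ± 0.30 (SE), while SELENOF was higher at 0.89 ± 0.09 (SE). Among aldehyde dehydrogenases 7 of 10 were lower and 2 higher (median -1.18). ALDH18A1 was lower at -2.33 ± 0.09 (SE) and ALDH7A1 higher at 1.24 ± 0.07 (SE).

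The remaining lists held both lower and higher genes, and the shares of lower genes for protein phosphatase 1 and for the ZCCHC and PNMA family were near the 47.1% of all genes. Dystroglycan glycosylation genes that act with B4GAT1 had 4 of 6 lower and 2 higher (median -0.57), with DAG1, dystroglycan itself, higher at 0.51 ± 0.07 (SE), a call lost without TMM scaling (0.15). Of 3 fitted tail-anchored insertion genes that act with UBL4A, 1 was lower (GET3) and 1 higher (CAMLG), with a median of 0.25, which was -0.11 when totals were used without TMM scaling. Protein phosphatase 1 genes had 5 of 12 lower and 4 higher (median -0.22), and the catalytic subunit PPP1CC was lower at -1.20 ± 0.08 (SE). ZCCHC and PNMA family genes had 5 of 11 lower and 5 higher (median -0.07), with ZCCHC7, a long gene of 238 kb, higher at 1.84 ± 0.10 (SE).

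Genes outside the 8 whose pattern was most like a member were taken by the smallest Euclidean distance over log2 values of the 6 PAR-CLIP and RNA libraries. GGH was nearest to INSIG1 (distance 2.14) and PPP1R26 (0.859), SDC1 to UBL4A (1.28) and POMGNT2 to GPX1 (1.19). SLC25A4 was nearest to BEX1 (0.868) and ALDH1B1 (1.18), and SHISA2 to B4GAT1 (1.46) and ZCCHC12 (1.39). SHISA2 had 56.6 CPM of nuclear RNA, 0.721 covPM of PHC1 coverage and none of RNAPII 4SU. INSIG1 was the farthest from its nearest gene, with RNA well above the 93.7 CPM of GGH.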

How the data were processed

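The members and gene lists were chosen with earlier results of these data known. The submitters' processing notes name hg19 for all libraries, Bowtie 0.12.7 with SAMtools 0.1.19 and R 3.2.2 or 3.1.0 for PAR-CLIP. For nuclear RNA they name TopHat2 2.0.11. For ChIP-seq they name Bowtie2 2.2.3, SAMtools 0.1.19 and R 3.3.0. The cluster caller, the counting of RNA reads and the TSS window are not given in the sources used here. The deposited RNA table holds counts per gene and library; 1 further value column was not used. The deposited PAR-CLIP lists give for each cluster a signal, its mean coverage per base, unscaled. The deposited ChIP table holds a score, by the authors the reads per 10M minus the input. Read numbers behind it were recovered within a tolerance of 1e-08 for all targets except PHC1 and PHC1 dFCS, whose replicates the authors pooled.

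A cluster's coverage times its length was added to the gene region starting most closely before its midpoint, and dropped where that region ended short of it. Strand was not used in this step, so antisense clusters count as well. Values per 1M, scaled by TMM (edgeR 4.0.16), were fitted as log2 of the value plus 1 in limma 3.58.1 (trend, robust), over genes with 5 per 1M or more in at least 2 libraries, 2-sided, with a Benjamini-Hochberg threshold of 0.05. Levels printed per library are plain values per 1M. The limma fit was tested on simulated RNA read counts only. That test does not cover cluster coverage set against RNA counts. The design had foreseen edgeR for replicate ChIP counts; the pooled scores allowed only ratios, with a pseudocount of 0.0645 reads per 10M. Intervals are exact conditional binomial intervals (SciPy 1.17.1). Region positions are hg19, from the deposited table; promoters and strands are from RefSeq on GRCh38.p14. Named genes were the 8 members, their adjoining genes, the 4 next lowest folds, the nearest profiles, and up to 4 genes of highest nuclear RNA per list; CST3, CFL2 and GPX3 were named after their values were seen.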

Additional observations from a re-analysis of the deposited data

How the results depend on the processing

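The choice of the members fixed the negative direction of their folds over RNA, so their sign says nothing about stability. Of 123 values, 1 for each member with any cluster and each alternative, 110 moved by less than the combined spread within the groups compared. Some did so because the setting left the member's coverage as it was. For RNAPII that spread holds the gap between the 4SU and 6SG libraries, which are not replicates, so it is a wide yardstick. By it PPP1R26 counted as unmoved although its fold went from -4.29 to -2.28 with the 4SU library alone. Folds of PHC1 over RNA lay between -7.79 and -3.73 and those of RNAPII over RNA between -6.74 and -2.28. For PHC1 the lowest came without replicate 2 and the highest with a pseudocount of 5; for RNAPII, with a pseudocount of 0.5 and with the 4SU library alone. Counts of genes lower in PHC1 than in RNA were 2779 to 5097 with a replicate left out, 2779 and 2780 of these without RNA replicates 1 and 2, where the filter no longer passed any member, since each has enough coverage in RNA alone. Totals without TMM moved the median fold of all genes to -0.72, against -0.33, and the split to 5148 lower and 2579 higher. For RNAPII against RNA, cluster numbers gave 89 lower and 10 higher, no filter gave 1267 and 178, the 4SU library alone gave 4358 and 3459, and leaving out an RNA replicate gave 2 and 8, against 0 and 0. For PHC1 against RNAPII the 4SU library alone gave 2248 lower and 2707 higher, and leaving out a PHC1 replicate gave 0 to 4 higher; the cause was not tested. Same-numbered libraries did not pair (correlation of deviations 0.036); with a replicate block 4423 genes were lower and 3255 higher in PHC1 than in RNA. PHC1 dFCS exceeded PHC1 at 6 of the 8 promoters under every alternative run. Depth limits the 6SG zeros and the ChIP scores near 0.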
